A study of Mus musculus with 20 samples.

Results

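The genes described here are 10 genes of the mesothelium and epicardium, picked by name from the 34291 gene symbols counted in mouse heart: Msln, Upk3b, Upk1b, Lrrn4, Rspo1, Wt1, Bnc1, Krt19, Krt8 and Krt18. Each of the 10 had its own row, and all 10 were among the 13940 genes that passed the filter on low counts. RNA came from 20 whole, frozen hearts of C57BL/6 mice, 27 months old and sequenced as poly(A) RNA. From 24 months of age, 10 mice ate a diet with 14 ppm rapamycin, a drug that blocks the kinase mTOR, and 10 ate a control diet, each for 3 months. Libraries are named by diet and the number in their label.

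The mesothelium is the single sheet of flat epithelial-like cells that covers the organs of the body cavities, and the epicardium is the part of it that covers the heart. During development epicardial cells pass into the heart wall and give rise to fibroblasts and mural cells, while in the adult heart the layer is thin and mostly at rest. It keeps epithelial keratins in its cytoskeleton and carries surface proteins, among them mesothelin and uroplakins, that heart muscle and vessels largely lack. A whole heart holds few such cells, so reads of these genes also depend on how much surface layer was taken with the organ. In bulk tissue, fewer cells of a type and less RNA per cell cannot be told apart.

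Some hearts carried transcripts of neighbouring organs, which matters for the keratins because lung, liver and thymic epithelium make them too. Since mesothelium covers other organs of the body cavities as well, carried tissue could also add reads of the other genes, which was not tested. A library was counted as such when the summed CPM (counts scaled to a common library total) of a list of lung, liver or thymus genes exceeded 10 times the median of all 20 libraries. Lung transcripts exceeded that limit in control 1, control 19, control 20 and rapamycin 15, liver transcripts in control 7, rapamycin 4 and rapamycin 9, and thymus transcripts in rapamycin 8. In control 19 the 10 lung genes summed to 30938 CPM, against at most 567 in the other controls and 2.68 to 207 with rapamycin. There 6 cardiomyocyte genes summed to 14926 CPM, against 34208 to 45718 in the other controls and 37040 to 46769 with rapamycin. Totals were 7039514 to 10594335 reads per control library and 8525162 to 12458309 with rapamycin, with control 19 the shallowest.

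Upstream sequences of 4 of the genes are shown because they belong to 2 pairs set against each other below: Upk3b with Lrrn4, the pair with the highest correlation among the 10, and the chromosomal neighbours Krt8 and Krt18. Each is the 250 bases before the start listed by RefSeq on GRCm38.p6, a later build than the authors', written 5′ to 3′ on the gene's own strand: Upk3b at chr5:136038246-136038495, plus strand, Lrrn4 at chr2:132880863-132881112, minus strand, Krt8 at chr15:102004343-102004592, minus strand and Krt18 at chr15:102027966-102028215, plus strand. Capitals mark GGAATG, or its reverse CATTCC, the core bound by TEAD factors, and AGATAA, a form of the GATA factor motif.
Upk3b: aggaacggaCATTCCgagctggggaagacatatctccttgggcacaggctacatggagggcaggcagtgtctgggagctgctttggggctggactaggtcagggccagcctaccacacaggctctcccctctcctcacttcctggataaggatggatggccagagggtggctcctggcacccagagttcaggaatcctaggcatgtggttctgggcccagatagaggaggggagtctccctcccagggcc
Lrrn4: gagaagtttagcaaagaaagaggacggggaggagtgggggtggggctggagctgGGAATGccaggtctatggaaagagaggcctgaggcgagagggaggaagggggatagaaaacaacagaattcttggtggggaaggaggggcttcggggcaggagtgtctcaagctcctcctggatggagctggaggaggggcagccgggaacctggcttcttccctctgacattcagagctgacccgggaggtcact
Krt8: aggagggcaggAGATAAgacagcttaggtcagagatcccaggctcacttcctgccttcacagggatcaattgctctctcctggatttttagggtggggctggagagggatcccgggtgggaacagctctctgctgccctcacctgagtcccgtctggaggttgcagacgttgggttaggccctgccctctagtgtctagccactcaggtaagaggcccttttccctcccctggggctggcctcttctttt
Krt18: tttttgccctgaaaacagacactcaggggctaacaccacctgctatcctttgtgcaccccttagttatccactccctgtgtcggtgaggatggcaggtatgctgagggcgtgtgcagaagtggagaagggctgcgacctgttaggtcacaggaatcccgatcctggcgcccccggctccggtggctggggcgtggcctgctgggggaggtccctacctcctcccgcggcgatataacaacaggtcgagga
Both strands were searched in the 6 member windows found, the 4 above and those of Rspo1 and Bnc1. Msln, Wt1, Krt19 and Upk1b had no window in the table. GGAATG was in 2 of the 6, Upk3b and Lrrn4, and in 12.6% of all 32851 windows of that length. AGATAA was in 1 of the 6, Krt8, and in 9.99% of all windows. The WT1 motif GCGTGGGAG was in 0 of the 6 and in 0.405% of all windows, and TATAAA in 0 of the 6 and 12.4%. These are matches of letters and say nothing of binding.

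In hearts of rapamycin-fed mice all 10 genes had fitted values below those of controls, and mesothelin fell (edgeR quasi-likelihood test with Benjamini-Hochberg adjustment over all genes, threshold 0.05). Differences are given as log2 fold changes, negative where rapamycin hearts were lower. The median over the 10 was -0.84, a fold of 0.557, where the median over all 13940 genes was -0.01 and 52.5% of genes were below 0. Passing the test in the downward direction were 1 of 10, against 2.68% of all genes (3.36% in either direction, 0.689% upward), and 9 of 10 had an unadjusted p under 0.05 and were lower, against 13.5% of all genes. Without control 19 the median was -0.71, 0 of the 10 passed with edgeR and 9 still had an unadjusted p under 0.05 (2.33% and 10.5% of all genes were lower at these limits, and 3.38% passed in either direction). The 10 were chosen with earlier results of these data known, and 7 of them varied together from heart to heart, as did Krt19 with these 7. Their counts are therefore not independent results, and their difference from all genes was not tested. Over all genes tested 96 rose and 373 fell, or 48 and 1284 when libraries were scaled by their totals alone, a scaling that moved the median of all genes to -0.13 and that of the 10 to -0.98. With DESeq2 the adjusted p was under 0.05 for Msln, Krt19, Upk3b, Krt8, Krt18 and Upk1b with all libraries, and for Msln alone without control 19. In both cases DESeq2 also called more of all genes than edgeR did, with counts given in the last section. The authors' deposited table of 700 genes, 2.04% of all 34291 gene symbols, lists 3 of the 10, Msln, Upk3b and Krt19, by a rule not given in the sources used here.

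**Figure D1:**
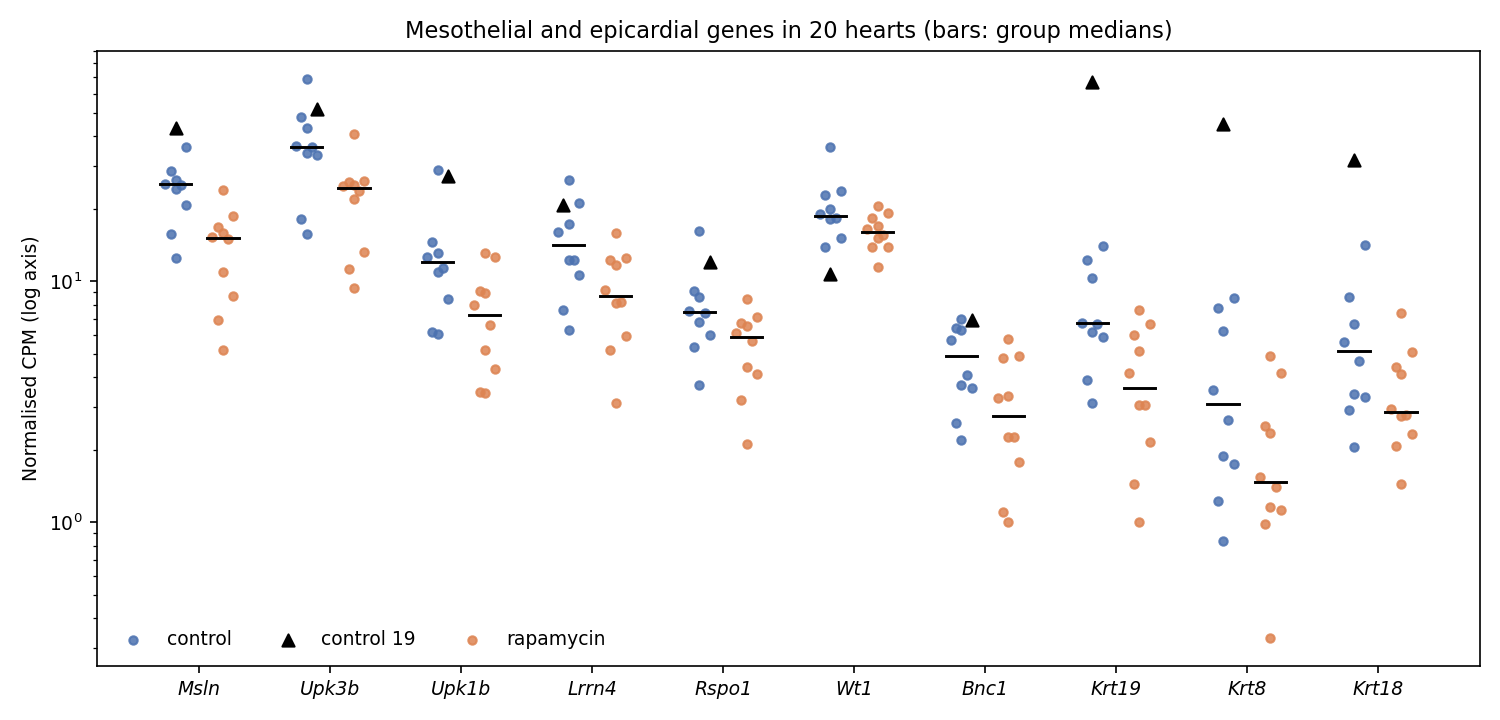
Normalised CPM (log axis) of each gene in the 10 control and 10 rapamycin hearts; each point is a library, black triangles are control 19 and bars are group medians. Control 19 stands far above the other controls for Krt19, Krt8 and Krt18 and is the lowest control for Wt1, and the groups overlap for every gene.

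Among surface proteins of mesothelial cells, Msln encodes mesothelin, a glycoprotein tethered to the membrane that binds the mucin Muc16. It stood at 12.5, 25.2 and 43.2 normalised CPM in controls (lowest, median, highest of 10) and at 5.21, 15.1 and 23.9 with rapamycin. All 10 rapamycin hearts lay below the control median, 4 lay below every control, and 7 controls lay above every rapamycin heart. Means were 25.7 ± 8.96 in controls and 13.7 ± 5.74 with rapamycin (SD, n = 10 each), a log2 fold change of -0.91 ± 0.24 (SE, adjusted p = 0.0405 by edgeR). This call did not hold when any of control 2, 7, 11 or 19 or rapamycin 4, 6, 8, 12, 14, 15 or 18 was left out (adjusted p from 0.0529 to 0.0789, and -0.79 with 0.0548 without control 19). DESeq2 gave Msln an adjusted p of 0.00843 with all libraries and 0.0165 without control 19.

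Upk3b encodes an uroplakin, a membrane protein first known from bladder lining and a standard mesothelial marker. Its control hearts ran from 15.8 through a median of 36.1 to 69.2 normalised CPM, and rapamycin hearts from 9.37 through 24.3 to 40.7. Rapamycin 3 alone of its group lay above the control median, while control 13 and control 16 lay below the rapamycin median. The log2 fold change was -0.80 ± 0.26 (adjusted p = 0.0800 by edgeR), and of the fits that left out 1 library it passed in those without control 13, control 16 or rapamycin 3 (adjusted p of at most 0.0497). With control 19 left out it was -0.74 (0.108).

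Upk1b, a tetraspanin of the same family, stood at 6.05, 12 and 29.1 normalised CPM in controls and 3.44, 7.28 and 13.1 with rapamycin (lowest, median, highest). Control 11 and control 19, at 29.1 and 27.4, stood apart from the next control at 14.5. Its log2 fold change was -0.89 ± 0.31 (adjusted p = 0.0963 by edgeR), or -0.73 without control 19 (0.163). Lrrn4, a membrane protein with leucine-rich repeats, ran from 6.26 through 14.1 to 26.2 in controls and from 3.12 through 8.67 to 15.8 with rapamycin. Here 5 controls lay above every rapamycin heart and 3 rapamycin hearts below every control, with a log2 fold change of -0.70 ± 0.27 (adjusted p = 0.129 by edgeR). In the RefSeq annotation Lrrn4 overlaps Crls1, an enzyme gene of cardiolipin synthesis. Since the strand setting of the counting is not given, reads in the overlap cannot be told apart, but Crls1 stood at 31.2 ± 3.24 and 31.3 ± 3.71 CPM (SD, n = 10 per group; log2 fold change 0.01).

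Rspo1 encodes R-spondin 1, a secreted protein that strengthens Wnt signals by binding Lgr receptors and removing the receptor-degrading ligases Znrf3 and Rnf43. It stood at 3.71, 7.46 and 16.1 normalised CPM in controls and at 2.12, 5.86 and 8.43 with rapamycin (lowest, median, highest). Only 4 controls lay above every rapamycin heart, and the log2 fold change of -0.60 ± 0.24 did not pass (adjusted p = 0.154 by edgeR). Rspo1 overlaps Gm12930 in the RefSeq annotation, and reads in that overlap cannot be told apart either. With edgeR 0 of the 10 tested of 15 listed genes of R-spondin and Wnt signalling passed, and their median was -0.02. An unadjusted p under 0.05 in either direction was found for 3 of these 10, and for 3024 of all 13940 genes. The receptor Lgr6 stood at 0.40 ± 0.14 (adjusted p = 0.112 by edgeR, and 0.0328 by DESeq2 without control 19) and Fzd4 at 0.22 ± 0.09 (0.157). The Wnt target Nkd1 stood at -1.47 ± 0.50 (0.0925, and 0.0484 with library totals as the only scaling), or -0.41 without control 19, and Znrf3 at -0.11 ± 0.10 (0.532).

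Of the 2 transcription factors among the 10, Wt1 had the fitted value nearest to 0 of all members. Wt1, the zinc finger factor that directs epicardial development, stood at 10.7, 18.7 and 35.9 normalised CPM in controls and 11.4, 16 and 20.6 with rapamycin (lowest, median, highest). Its spread was 35.0% of the mean in controls (31.4% without control 19) and 17.1% with rapamycin (coefficient of variation). No rapamycin heart lay below every control, but this rests on control 19, the lowest at 10.7. The next control, control 1, stood at 13.9, and rapamycin 6, 4 and 8, at 11.4, 13.8 and 13.8, lay below it. The log2 fold change of Wt1 was -0.29 ± 0.16 (adjusted p = 0.294 by edgeR), -0.35 without control 19 (0.172) and -0.15 without control 11 (0.528). Bnc1, the zinc finger protein basonuclin 1, ran from 2.19 through 4.89 to 6.98 in controls and from 1.0 through 2.76 to 5.76 with rapamycin. It had 9 to 70 reads per library and a log2 fold change of -0.65 ± 0.29 (adjusted p = 0.199 by edgeR).

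Of the keratins, which form filaments as pairs of an acidic and a basic chain, the acidic Krt19 stood at 3.13, 6.70 and 67.0 normalised CPM in controls and 1.0, 3.62 and 7.61 with rapamycin (lowest, median, highest). The next control after control 19 was control 1 at 14.1, and 5 rapamycin hearts lay below every control. Its log2 fold change was -1.75 ± 0.51 (adjusted p = 0.0562 by edgeR) with all libraries and -0.93 ± 0.32 (0.107) without control 19. Of the edgeR fits that left out 1 library it passed in those without control 10, 13, 16 or 17 (adjusted p of at most 0.0478).

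Krt8, the basic partner of Krt18, stood at 0.834, 3.10 and 44.9 normalised CPM in controls and at 0.333, 1.47 and 4.91 with rapamycin. The lowest value, of rapamycin 6, rests on 3 reads, for which counting error alone allows 0.619 to 8.77 (exact 95% Poisson interval). Krt18 ran from 2.06 through 5.15 to 31.8 in controls and from 1.44 through 2.87 to 7.36 with rapamycin, in which only rapamycin 6 lay below every control. Their log2 fold changes of -1.95 ± 0.63 and -1.23 ± 0.43 (adjusted p = 0.0829 and 0.105 by edgeR) became -0.92 ± 0.44 and -0.70 ± 0.32 (0.248 and 0.236) without control 19. The keratins had the largest fitted differences of the 10 with all libraries, and control 19, the library richest in lung transcripts, held the highest value of each of the 3. The share of lung tissue in those differences was not tested.

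**Figure D2:**
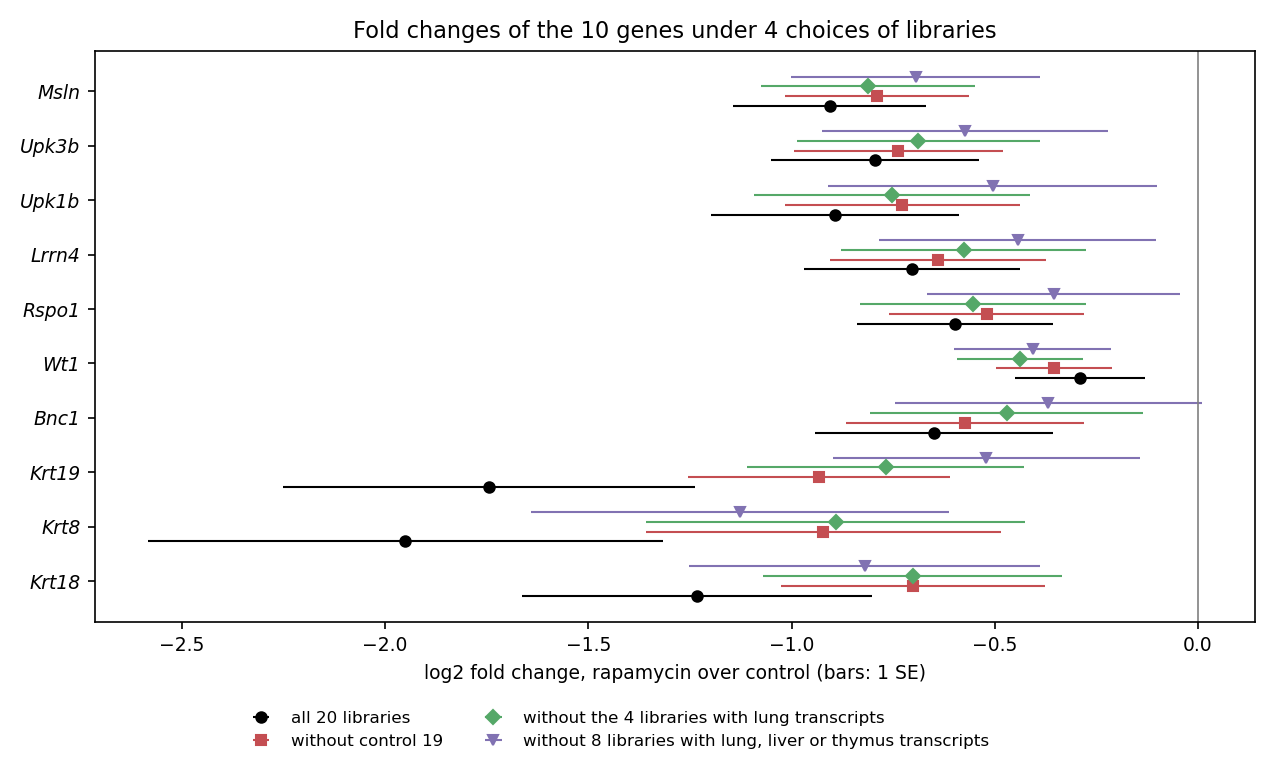
log2 fold changes of rapamycin over control with 1 SE for the 10 genes, fitted by edgeR with all 20 libraries, without control 19, without the 4 libraries with lung transcripts, and without the 8 libraries with lung, liver or thymus transcripts. The keratins move from -1.95, -1.75 and -1.23 to -0.92, -0.93 and -0.70 without control 19, while Msln moves from -0.91 to -0.79.

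With the mean of each diet removed, the 7 genes other than the keratins varied together from heart to heart. Correlations were taken over the 19 libraries other than control 19, on log2 CPM with each diet's mean removed, for all 45 pairs. Pearson's r was 0.45 to 0.94 (median 0.87) for the 21 pairs among Msln, Upk3b, Upk1b, Lrrn4, Rspo1, Wt1 and Bnc1. Of these pairs 20 had an adjusted p under 0.05 by a 2-sided permutation test with 100000 resamples, Wt1 with Bnc1 being the exception (r = 0.45). The closest pair was Upk3b with Lrrn4, at r = 0.94 and Spearman's rho = 0.93 (permutation p = 1e-05 for each, the smallest the resamples can give, and 3e-05 and 6.43e-05 adjusted over 45 pairs). It held at r = 0.93 without rapamycin 8 and control 13, the hearts farthest from the median of Upk3b. Wt1 was the loosest of the 7, with a mean r of 0.63 with the other six, against 0.78 to 0.86 for the rest. Taken by diet, Wt1 with Bnc1 had r = 0.26 in controls other than control 19 and 0.72 with rapamycin. For Wt1 with Msln these were 0.53 and 0.84.

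Krt19 varied with these genes, while Krt8 and Krt18 had lower values, which moved when 2 hearts were left out. Krt19 had r of 0.44 to 0.85 with the 7, whereas the 14 pairs of Krt8 or Krt18 with them had r of 0.10 to 0.39 (median 0.22), none with an adjusted p under 0.05. Krt8 with Upk3b gave r = 0.25 and rho = 0.23 (permutation p = 0.306 and 0.334, adjusted 0.383 and 0.367). Krt8 and Krt18 were close to each other, at r = 0.89 and rho = 0.91 (permutation p = 1e-05 each, the smallest possible, adjusted 3e-05 and 6.43e-05), and at r = 0.86 without rapamycin 6 and control 1. Leaving out the 2 farthest hearts moved these 14 pairs to between -0.08 and 0.70 and their median to 0.40. Whether the groups of pairs differ was not tested.

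**Figure D3:**
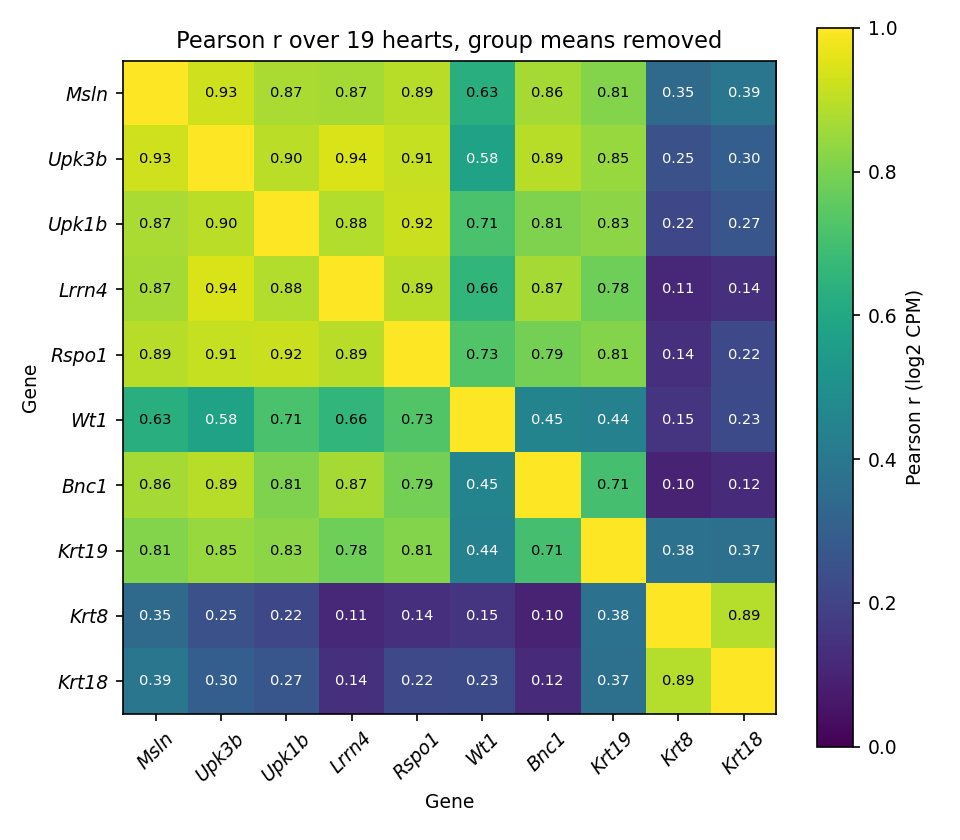
Pearson r between the 10 genes over 19 hearts, on log2 CPM with the mean of each diet removed; colour and printed value give r. Msln, Upk3b, Upk1b, Lrrn4, Rspo1, Bnc1 and Krt19 form a block of high values, Wt1 is lower, and Krt8 and Krt18 are high only with each other (0.89).

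Reads of each gene were also taken per 100 reads of Upk3b in the same library, a ratio in which library size cancels. For Lrrn4, whose correlation with Upk3b was the highest, it was 31.4 to 48.4 in controls and 32.8 to 52.5 with rapamycin, and 40.0 in control 19. For Wt1, the loosest of the 7, it ran from 20.7 in control 19 to 115 in controls, and from 47.0 to 148 with rapamycin, highest in rapamycin 8. For Krt8 it ran from 3.38 to 87.1 in controls and from 2.97 to 52.4 with rapamycin, with control medians of 8.31 and 5.51 with and without control 19 and a rapamycin median of 7.09. Some of these values rest on few reads of Krt8, down to 3 in rapamycin 6, so counting error widens the range. Control 19 was highest at 87.1, and rapamycin 8 followed at 52.4, control 1 at 25.1, control 17 at 23.1, rapamycin 15 at 19 and control 7 at 14.3. All of these except control 17 were over the limit for lung, liver or thymus transcripts.

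Rapamycin 8 had the lowest Upk3b, Lrrn4, Krt19, Bnc1 and Rspo1 of all 20 hearts but the highest Krt8 and Krt18 of its group. It held 126 reads of Rag1, a recombinase of developing lymphocytes, where control 17 held 27, control 7 held 1 and no other library any. Control 17, with the second highest Krt18 per 100 reads of Upk3b among controls (42.3), also held 66 reads of Krt5, a keratin of basal and thymic epithelium. Krt5 had 18 reads in control 1, 16 in rapamycin 8, 8 in rapamycin 15, 6 in control 20, 1 in control 19 and 0 elsewhere. In control 17 the thymus list of 4 genes summed to 6.51 CPM against a median of 1.48 over libraries, though control 11, with 0 reads of Rag1 and Krt5, reached 6.34. Of Dntt, another gene of that list, control 17 held 19 reads and rapamycin 8 held 64. No other library held more than 1, and control 11 held 0. The ratio was not high in every such heart: rapamycin 9, with 279 CPM of the liver protein gene Alb, had 9.02 Krt8 reads per 100 of Upk3b, and control 20, with 61.4 CPM of the airway gene Scgb1a1, had 5.51. The part of thymus, liver or lung epithelium in Krt8 and Krt18 was not tested.

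**Figure D4:**
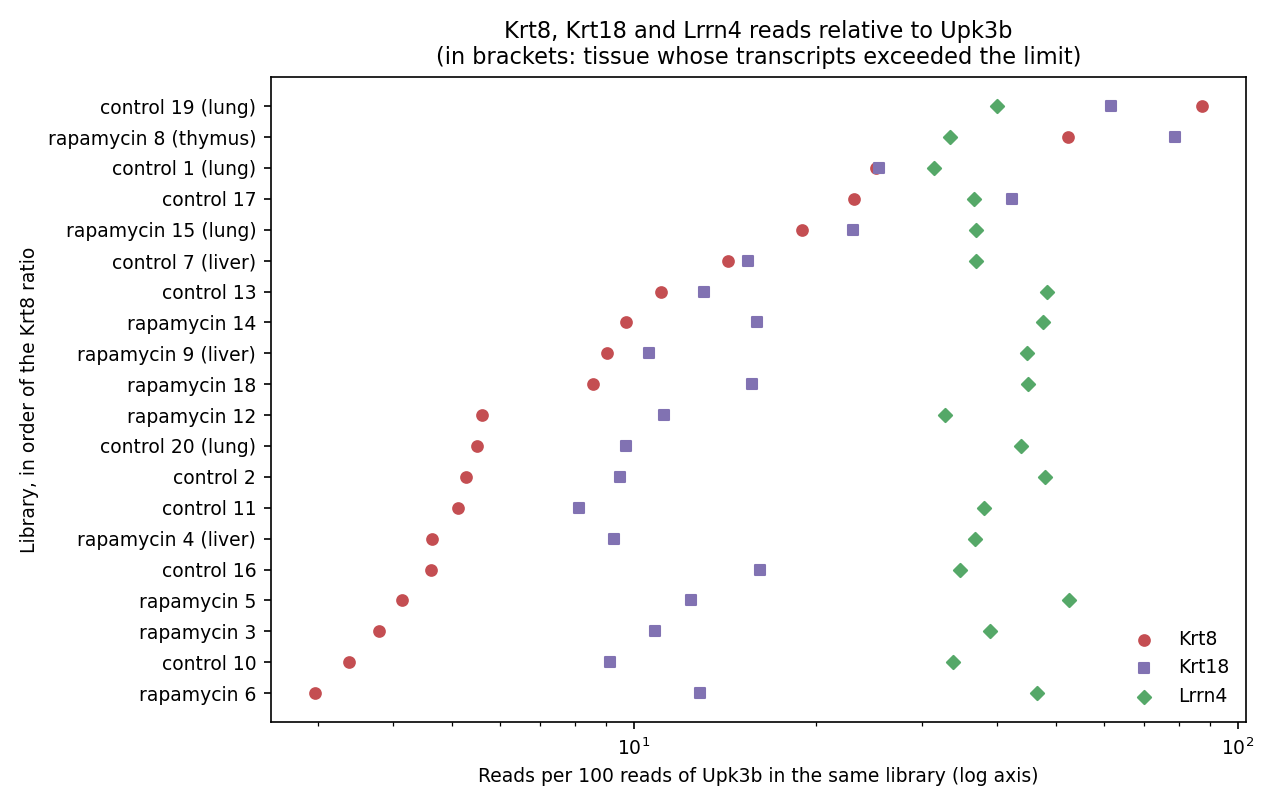
Reads of Krt8, Krt18 and Lrrn4 per 100 reads of Upk3b (log axis) in each library, ordered by the Krt8 ratio; brackets name the tissue whose transcripts exceeded the limit. Lrrn4 lies between 31.4 and 52.5 while Krt8 spans 2.97 to 87.1, with control 19 and rapamycin 8 at the top.

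The ranks of single hearts show how the group difference is made up. Rapamycin 6 was among the 3 lowest of 20 hearts for all 10 genes, and rapamycin 8 and rapamycin 18 for 7 each. Control 11 was among the 3 highest for 8 genes and the highest for 6, and control 19 among the 3 highest for 9 and the lowest for Wt1. Control 11 held no excess of lung transcripts (2.95 CPM over 10 genes). Control 13 and control 16 had a median rank of 5 from the bottom over the 7 genes that varied together, and rapamycin 3 a median rank of 16. Rapamycin 6 and rapamycin 18 held 9604878 and 11435312 reads, where the median of their group was 9736201.5. The part of depth in these ranks was not tested.

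Other genes of this cell layer were mostly lower with rapamycin, and 0 passed with edgeR. Of 18 further mesothelial and epicardial genes 17 were tested, 15 lay below 0 and 10 of these had an unadjusted p under 0.05, with a median of -0.52. Over all genes tested 52.5% lay below 0 and 13.5% were lower at that limit. Without control 19 the list's median was -0.31, with 14 below 0 and 7 lower at that limit, against 48.6% and 10.5% of all genes. Those with the smallest p were Dmkn, a secreted epithelial protein (-2.18 ± 0.63, adjusted p = 0.0553 by edgeR, and -1.28 without control 19), and the tight junction protein Cldn15 (-0.61 ± 0.18, 0.0636). Gpm6a, a membrane glycoprotein, stood at -0.72 ± 0.24 (0.0905) and Pkhd1l1 at -0.66 ± 0.23 (0.0956). DESeq2 gave adjusted p-values of 0.00989 for Dmkn, 0.0274 for Cldn15 and 0.0462 for Gpm6a with all libraries, and of these only Cldn15 passed without control 19 (0.0489). With library totals as the only scaling edgeR called all 4. Of the edgeR fits that left out 1 library, Dmkn passed in those without control 10, 13, 16 or 17, and Cldn15 in those without control 13, control 16 or rapamycin 3 (adjusted p of at most 0.0433 and 0.0474). Tbx18 (0.06 ± 0.11) and Tcf21 (-0.02 ± 0.19), epicardial factors also active in mural cells and fibroblasts, and Aldh1a2 (-0.17 ± 0.22), the epicardial enzyme that makes retinoic acid, stood near 0 and were picked after their values were seen.

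Genes of retinoic acid signalling, of which 10 of 12 were tested, had a median of -0.04 with none passing (edgeR). Of these 10, 2 had an unadjusted p under 0.05 in either direction, against 3024 of all 13940 genes. The receptor Rarb stood at 0.19 ± 0.07 (adjusted p = 0.114 by edgeR) and Rdh10, an enzyme of retinal formation, at -0.20 ± 0.09 (0.20). Among 4 other uroplakins only Upk1a was tested (0.03 ± 0.21, adjusted p = 0.962 by edgeR, turning to -0.16 without the 4 libraries with lung transcripts), and Upk2, Upk3a and Upk3bl reached at most 1.28 CPM in any library. Of 10 other keratins 3 were tested. Krt7, a keratin of simple epithelia and mesothelium, fell (-2.52 ± 0.68, adjusted p = 0.0448 by edgeR). Its mean was 16.6 ± 35.4 in controls and 2.86 ± 1.12 with rapamycin (normalised CPM, SD of 10 hearts each). It stood at 137 CPM in control 19, without which it was at -0.93 (0.0745). DESeq2, run with its default replacement of outlying counts, gave -0.88 with all libraries (adjusted p = 0.040) and -0.93 without control 19 (0.0326). The edgeR call was also lost without control 1, 2 or 11 or rapamycin 3, 4, 6, 8, 9, 12, 14, 15 or 18 (adjusted p from 0.0505 to 0.0833). Krt80 stood at -1.04 ± 0.41 (0.145), or -0.28 without control 19, and Krt10 at -0.17 ± 0.13 (0.474).

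Beside these, none of the markers of other heart cells passed with edgeR. The medians were 0.30 over 6 cardiomyocyte genes (4 with an unadjusted p under 0.05, all higher), 0.04 over 5 endothelial genes, -0.15 over 6 fibroblast genes and 0.06 over 6 adipocyte genes (0 with an unadjusted p under 0.05 in each of the last 3 lists), and -0.13 over the 2 skeletal muscle genes tested of 6. Over all genes 3024 of 13940 had an unadjusted p under 0.05 in either direction, and 1880 of these were lower with rapamycin. Without control 19 the cardiomyocyte median was 0.22 and 1 of the 6 passed, upward, where 3.38% of all genes passed in either direction. Adipocyte genes, a mark of fat kept on the organ, summed to 35.3 to 508 CPM in controls and 24.6 to 507 with rapamycin. The median over libraries was 195 CPM. Rapamycin 6, 8 and 18 and controls 13 and 16, low in the mesothelial genes, had adipocyte sums of 24.6, 84.9, 80.1, 35.3 and 39.0 CPM. Rapamycin 3, the highest of its group in Upk3b, had 507. Among hearts that went the other way, control 11, with the highest Upk3b, had only 64.2 CPM. Control 2 and rapamycin 5, each with a median rank of 14 over the 7 genes, had 74.6 and 88.4. Rapamycin 4, with a median rank of 4, had 213. Of 8 general epithelial genes only Krt7 was tested. The 8 summed to 2.10 to 304 CPM in controls (26.3 at most without control 19) and 1.49 to 11.9 with rapamycin, and Epcam, a defining epithelial marker, had 0 reads in controls 10 and 11 and in rapamycin 5, 6, 9 and 12. Of these, control 11 was high and rapamycin 6 low in mesothelial genes. The part of dissection in the group difference was not tested.

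Outside the 10, the genes whose levels were most like those of the 7 were found by the mean r over the same 19 hearts. They were the complement gene C2 (0.88), Gpm6a (0.86), the proteoglycan Gpc3 (0.85), 4930473A06Rik (0.84), the tubulin folding cofactor Tbce (0.84), Crb2 of epithelial polarity (0.84), the metal transporter Slc39a8 (0.83) and Nkain4 (0.83). Of these 8, Gpm6a and Nkain4 were on the list of further mesothelial genes. With edgeR 0 of the 8 passed between the diets, and with DESeq2 Gpm6a alone did, as given above. C2 stood at -0.69 ± 0.26, Nkain4 at -0.85 ± 0.32 and Crb2 at -0.63 ± 0.30 (adjusted p = 0.125, 0.131 and 0.219 by edgeR). Gpc3 and Slc39a8, at -0.94 and -1.25, stood at -0.36 and -0.50 without control 19. Tbce, at 103 ± 29.5 and 94.5 ± 16.7 CPM (SD, n = 10 per group), stood at -0.12 ± 0.14 (adjusted p = 0.650 by edgeR), and 4930473A06Rik at -0.33 ± 0.19 (0.332).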

How the data were processed

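Libraries of poly(A) RNA from 20 hearts gave paired reads of 50 bp. By the design text, only uniquely placed reads on MGSCv37 were kept, with 2 mismatches allowed and pairs 130 to 300 apart. Aligner, counter, annotation and strand setting are not given in the sources. The submitters' processing notes list edgeR, with no step stated. The authors deposited raw read counts per gene symbol, and a table of 700 genes in CPM, which equal those counts over the column totals within 0.001. The column of rapamycin 4 lacks 1 letter of its title and was matched as the only title with that number. The groups are 10 mice each, with no batch, date or pairing in the labels.

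Counts were tested with edgeR 4.0.16 in R 4.3.3: default filter, TMM factors, quasi-likelihood F-test of all 20 libraries without covariates, Benjamini-Hochberg adjustment over 13940 genes. SE is the fold change over the square root of F. Normalised CPM divide by TMM-scaled library sizes. A prior count of 2 was added for log2 CPM. CPM are not corrected for gene length, so levels were not compared between genes. Low counts, such as 3 reads of Krt8, carry large counting error. The scripts were tested on simulated counts. Alternatives were other scalings and filters, DESeq2 1.42.0 (default outlier replacement), left-out libraries and a lung covariate (log2 of summed lung CPM plus 1).

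The 10 genes and the lists were chosen with earlier results of these data known. All 10 are named, and of other lists up to 4 genes with the smallest p, plus the 8 genes most alike over 19 hearts. Tbx18, Tcf21, Aldh1a2, Crls1 and single markers of other tissues were added after their values were seen. Older symbols were matched through a RefSeq table.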

Additional observations from a re-analysis of the deposited data

Results flagged for a closer look

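In the controls the values of 4 genes had 1 library far from the rest, by a gap larger than Dixon's 95% limit for 10 samples. Control 19 held 67.0 normalised CPM of Krt19, 44.9 of Krt8 and 31.8 of Krt18, where the next highest controls held 14.1, 8.53 and 14.2. Control 11 held 35.9 of Wt1, where the next control held 23.6. No rapamycin heart was set apart in this way. Chance sets apart about 1 in 20 groups where values are normally distributed and groups independent, and 20 groups of values were examined. These groups share their hearts, and control 19 gave the flags of Krt19, Krt8 and Krt18. The number of flags can therefore not be measured against that rate.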

How the results depend on the processing

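Each of the 10 genes stayed below 0 in all 29 alternatives, with Msln between -1.04 and -0.69, but few calls were stable. Of the 10, 1 passed in the main fit, 4 with library totals as the only scaling, and 6 with DESeq2. With edgeR 0 passed without a filter, without control 19, without the 4 libraries with lung transcripts and with the lung level as a covariate (9, 9, 5 and 7 with an unadjusted p under 0.05). Without a filter 4479 of 23781 genes were under that limit in either direction, and 10.5% of all genes were lower at it without control 19. No such share is given for the fits without the 4 libraries and with the lung covariate. Their 5 and 7 are therefore not set against all genes. Leaving out each library in turn gave 0 to 3 of the 10. Over all genes 469 were called, 1332 with library totals, 969 with DESeq2, 820 with DESeq2 without control 19, 280 without the 4 libraries with lung transcripts, 179 with the lung covariate, and 165 to 791 when each library was left out. An alternative chosen after seeing the data left out the 8 libraries with lung, liver or thymus transcripts: edgeR then called 0 genes and 0 of the 10 (1418 and 2 with an unadjusted p under 0.05), with 12 libraries left and a median of -0.51 over the 10. Upk1a turned to -0.10 with library totals, -0.0021 without control 19 and -0.0046 with DESeq2 without it, -0.16 and -0.14 without the 4 and the 8 libraries, -0.0178 with the lung covariate, and -0.041 to 0.12 when each library was left out. Tbce turned to 0.0281 without the 8 libraries. The cause of these changes was not tested. No paired analysis was possible because the labels share no library number between the diets.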
